A study of Mus musculus with 4 samples.

Results

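Genes whose loss causes polycystic kidney disease or nephronophthisis, or cysts in mouse mutants, were read in mouse kidney ureteric buds treated with angiotensin II (AngII) or media. They are 8 in all: Pkd1, Pkd2, Pkhd1, Bicc1, Nphp4, Ift88, Kif3a and Glis3. Their probes were found by matching each probe's RefSeq accession to the gene, which gave 11 of the 41174 probes on the array, and 8 of the 17305 genes named on it. Intact buds, the epithelial outgrowths that branch into the collecting ducts and ureter, were cultured in matrix gel in DMEM/F12 with 10% FBS, 100 ng/ml GDNF and 100 ng/ml HGF, which both groups received. They then had AngII at 1e-05 M or media alone for 6 h. The labels number 2 AngII and 2 media RNAs as biological replicates without naming strain, age, animals or cultures, and AngII and media RNA of one number shared an array, once in each dye orientation, giving 4 two-colour arrays on 1 slide. AngII is the hormone through which the renin-angiotensin system acts on cells, and the question is how these transcripts differ in buds that had it.

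The products of most of these genes act at or near the primary cilium, the single antenna-like projection of tubule cells. Pkd1 encodes polycystin-1, a large membrane protein, and Pkd2 encodes polycystin-2, a cation channel that pairs with it; mutations in either cause dominant polycystic kidney disease. Pkhd1 encodes fibrocystin, the protein lost in recessive polycystic kidney disease, and HNF1 factors are known activators of this gene. Bicc1 encodes an RNA-binding protein whose loss makes mouse kidneys cystic, Nphp4 a protein of the ciliary transition zone, and Glis3 a zinc finger transcription factor. Ift88 is a subunit of the IFT-B complex, which carries cargo into the cilium, and Kif3a is a motor subunit of kinesin-2, which moves that complex towards the ciliary tip.

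Upstream sequences of 4 members are shown because Pkd2 and Kif3a had the widest ratios among the members, in opposite directions, while Pkd1 and Pkhd1 encode the partner of Pkd2 and the recessive disease protein. Each is the 250 bases before the gene start in the RefSeq table (GRCm38.p6), 5′ to 3′ on the gene's strand, with matches to the searched motifs in capitals.
Pkd1 (chr17:24549700-24549949, + strand): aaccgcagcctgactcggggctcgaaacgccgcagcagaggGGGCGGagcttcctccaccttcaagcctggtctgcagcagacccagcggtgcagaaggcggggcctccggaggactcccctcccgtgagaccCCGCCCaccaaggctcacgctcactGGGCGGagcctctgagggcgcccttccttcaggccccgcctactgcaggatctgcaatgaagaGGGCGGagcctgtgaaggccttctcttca
Pkd2 (chr5:104459207-104459456, + strand): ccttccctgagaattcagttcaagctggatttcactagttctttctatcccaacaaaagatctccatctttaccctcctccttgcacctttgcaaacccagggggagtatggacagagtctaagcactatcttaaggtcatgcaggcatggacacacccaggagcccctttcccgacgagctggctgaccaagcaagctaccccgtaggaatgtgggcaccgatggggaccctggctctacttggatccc
Pkhd1 (chr1:20618058-20618307, - strand): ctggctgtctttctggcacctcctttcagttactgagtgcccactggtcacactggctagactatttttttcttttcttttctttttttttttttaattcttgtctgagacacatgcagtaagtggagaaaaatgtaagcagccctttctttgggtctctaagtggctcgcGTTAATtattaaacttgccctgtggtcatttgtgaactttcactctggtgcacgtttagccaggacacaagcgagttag
Kif3a (chr11:53567119-53567368, + strand): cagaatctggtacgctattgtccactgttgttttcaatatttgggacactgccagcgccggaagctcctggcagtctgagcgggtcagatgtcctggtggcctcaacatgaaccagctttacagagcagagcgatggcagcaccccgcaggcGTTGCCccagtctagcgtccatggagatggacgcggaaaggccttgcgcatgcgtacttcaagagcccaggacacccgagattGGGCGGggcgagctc
The motifs searched, on both strands, were an HNF1 half-site (GTTAAT), a half-site of the RFX X-box of ciliary genes (GTTGCC), a GC box (GGGCGG), a cAMP response element (TGACGTCA) and an AP-1 site (TGANTCA). Of 32851 windows of the same length, these occur in 6.43%, 10.4%, 32.7%, 1.55% and 6.75%. The Pkhd1 window holds an HNF1 half-site that starts 79 bases before the gene start, in a window of 42.0% GC, where the median window has 52.4%. The Pkd1 window holds 4 GC boxes in 67.2% GC. The Kif3a window holds an RFX half-site starting 98 bases before the gene start and a GC box at 15 bases, and in the Pkd2 window none of these letters were found. A match is only a match of letters.

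Of the 11 probes, 9 from 7 genes were well above background in at least 1 of the 2 RNAs on all 4 arrays and were tested. The Glis3 probe and 1 of the 2 Pkhd1 probes were not, so these have no fold. At an adjusted p under 0.05 in limma, 5 member probes were higher and 3 lower under AngII. Of all 19390 probes tested, 76.1% passed, 37.6% higher and 38.5% lower, where 8 of the 9 member probes passed. With 9 probes, the member share is not read as different from that of the array. The median absolute log2 ratio of AngII over media was 0.18 for the member probes and 0.19 for all probes. A measured ratio had 1 sign on all 4 arrays for 4 of the 9 member probes, against 58.2% of all probes.

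The ratios of the numbered replicates did not differ beyond array noise: over all probes, the SD of their deviation from their mean was 0.04 on the log2 scale, and array noise alone gave an SD of 0.04. By limma with Benjamini-Hochberg adjustment, 0 probes differed between replicates 1 and 2 (0% of those tested), while 966 (4.99%) had an unadjusted p under 0.05. They were therefore counted as 1 pair of RNA samples. The p-values of the mean ratios below measure the spread between the 2 dye-swap averages and not between independent buds. Each average takes in both dye orientations, so its SE leaves out the difference between orientations. With 1 residual degree of freedom against 30.61 prior ones, that SE rests mostly on a variance shared over all probes. Between the dye orientations, unlike between the replicates, 55.1% of all probes differed in limma, and so did 7 of the 9 member probes. With the replicate number as a block on the 4 arrays, a fit whose residual holds the difference between orientations, 3 of the 9 member probes passed, both of Pkd2 and the brighter of Kif3a, against 29.7% of all probes. Each member's ratio is given on every array, by dye. Ureteric bud markers were present, with 15 of 16 well above background and Ret the exception. Of these 15, 7 rose and 6 fell, with log2 ratios from -1.13 to 1.53 and a median of 0.07. Over all genes 41.5% were higher and 37.4% lower. The mean level of these markers was 10.11 to 10.25 log2 units under AngII and 10.1 to 10.21 in media. In whole buds, fewer cells of a type and less RNA per cell cannot be told apart.

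**Figure D1:**
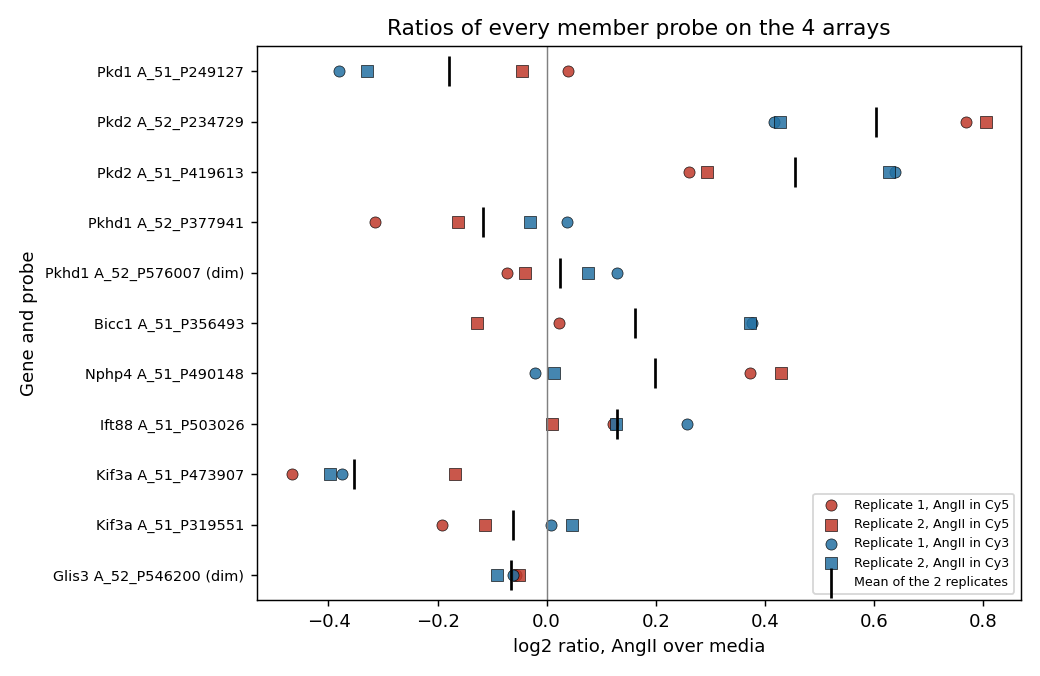
Log2 ratio of AngII over media (x axis) for each of the 11 member probes (y axis) on the 4 arrays. Red points have AngII in Cy5 and blue points AngII in Cy3, circles are replicate 1 and squares replicate 2, and the bar is the mean. Both Pkd2 probes lie above 0 on every array and the brighter Kif3a probe below 0 on every array. The colours separate on either side of the mean for Pkd1, Bicc1, Nphp4, both Pkd2 probes, both Pkhd1 probes and the dimmer Kif3a probe.

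Pkd2, the polycystin-2 channel gene, rose under AngII at both of its probes. The brighter probe (A_52_P234729) had log2 ratios of 0.77 and 0.81 with AngII in Cy5 and 0.42 and 0.43 with AngII in Cy3, in replicates 1 and 2. Its mean of 0.60 (SE 0.04, adjusted p = 1.32e-16 in limma) is a 1.52-fold difference. The second probe (A_51_P419613) had 0.26 and 0.29 with AngII in Cy5 and 0.64 and 0.63 with AngII in Cy3, a mean of 0.46 (SE 0.04, adjusted p = 1.80e-13 in limma). Every array lay above 0 at both probes. The dye orientations differed at both, by 0.37 at the brighter probe and -0.36 at the second (AngII in Cy5 minus AngII in Cy3, adjusted p = 0.00133 and 0.00157 in limma), so the dye with the larger ratio was not the same at the 2 probes. Both probes are annotated to the same transcript, NM_008861. As a level, the brighter probe read 10.62, 10.70, 10.65 and 10.57 log2 units in the AngII RNAs and 9.85, 9.90, 10.23 and 10.14 in the media RNAs, and the AngII and media values did not overlap. In size, the ratio of the brighter probe is above that of 90.6% of all tested probes and that of the second above 82.7%.

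Pkd1, the gene of the partner protein, was read by 1 probe (A_51_P249127) with a lower mean, at -0.18 (SE 0.04, adjusted p = 2.95e-05 in limma). Its log2 ratios were 0.04 and -0.04 with AngII in Cy5 and -0.38 and -0.33 with AngII in Cy3. The lower mean therefore came from the arrays with AngII in Cy3, and the orientations differed by 0.35 (adjusted p = 0.0022 in limma). With AngII in Cy5 alone the mean was -0.0024 (adjusted p = 0.973 in limma). The 2 polycystin genes thus had means on opposite sides of 0, of which that of Pkd2 held on every array. Their difference was not tested.

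Pkhd1, the fibrocystin gene, had a log2 ratio of -0.12 at its testable probe, A_52_P377941 (SE 0.04, adjusted p = 0.00331 in limma). The ratios were -0.32 and -0.16 with AngII in Cy5 and 0.04 and -0.03 with AngII in Cy3, so one array lay above 0. The orientations differed by -0.24 (adjusted p = 0.0204 in limma). In the authors' deposited table this probe has a log2 ratio of -0.11 with an adjusted p of 0.0517. The second Pkhd1 probe, A_52_P576007, was not well above background in either RNA on any array, with levels of 5.80 to 5.94 log2 units under AngII and 5.79 to 5.96 in media.

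Bicc1, the RNA-binding protein gene, was read by a bright probe (A_51_P356493) with a mean level of 14.12 log2 units under AngII and 13.96 in media. Its log2 ratios were 0.02 and -0.13 with AngII in Cy5 and 0.38 and 0.37 with AngII in Cy3, a mean of 0.16 (SE 0.04, adjusted p = 0.000142 in limma). The sign was mixed, the orientations differed by -0.43 (adjusted p = 0.00087 in limma), and with AngII in Cy5 alone the mean turned to -0.05. No spot of a member probe was saturated.

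Nphp4, the transition zone gene, had the reverse dye pattern. Its probe (A_51_P490148) had log2 ratios of 0.37 and 0.43 with AngII in Cy5 and -0.02 and 0.01 with AngII in Cy3. The mean was 0.20 (SE 0.04, adjusted p = 6.61e-06 in limma), and the orientations differed by 0.41 (adjusted p = 0.000766 in limma). With AngII in Cy3 alone the mean was -0.0043. For 5 of the 9 tested member probes, those of Pkd1, Pkhd1, Bicc1 and Nphp4 and the dimmer Kif3a probe, the difference between orientations was larger in size than the AngII ratio itself.

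**Figure D2:**
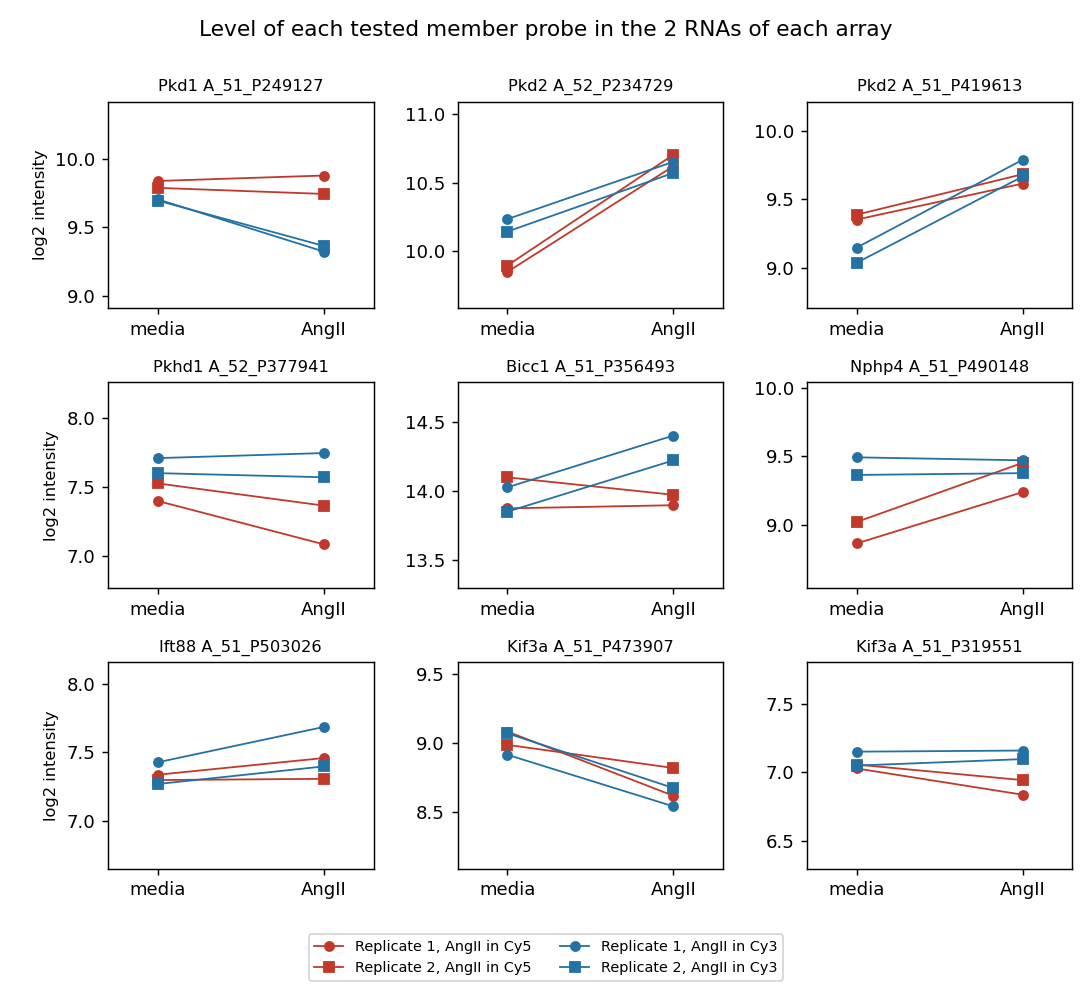
Log2 intensity (y axis, each panel spanning the same range of log2 units) of the 9 tested member probes in the media and AngII RNA of each array, joined by a line. Colours and markers are as for the ratios, red for AngII in Cy5 and blue for AngII in Cy3. All 4 lines go up at both Pkd2 probes and down at the brighter Kif3a probe, and at Pkd1 the blue lines drop while the red lines stay near level.

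Ift88, the IFT-B subunit whose partial loss gives the orpk mouse its cysts, had a small ratio of 1 sign. Its probe (A_51_P503026) had log2 ratios of 0.12 and 0.01 with AngII in Cy5 and 0.26 and 0.13 with AngII in Cy3, a mean of 0.13 (SE 0.04, adjusted p = 0.00207 in limma). The orientations had a difference of -0.13 (adjusted p = 0.112 in limma). The ratio was 0.19 in replicate 1 and 0.07 in replicate 2, and with Agilent's processed signals it did not pass (0.15, adjusted p = 0.164 in limma).

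Kif3a, the kinesin-2 motor gene, fell at the brighter of its 2 probes. That probe (A_51_P473907) had log2 ratios of -0.47 and -0.17 with AngII in Cy5 and -0.38 and -0.40 with AngII in Cy3, a mean of -0.35 (SE 0.04, adjusted p = 3.15e-10 in limma), so that the signal decreased by 21.7%. All arrays lay below 0, and the levels were 8.62, 8.82, 8.54 and 8.67 log2 units under AngII against 9.08, 8.99, 8.92 and 9.07 in media, with no overlap. The orientation difference was 0.07 (adjusted p = 0.504 in limma), the smallest among the tested member probes. The dimmer probe (A_51_P319551), annotated to the same transcript NM_008443, did not pass, at -0.06 (adjusted p = 0.109 in limma). It read -0.19 and -0.11 with AngII in Cy5 and 0.01 and 0.05 with AngII in Cy3. It was dimmer, at a mean level of 7.05 log2 units against 8.84 for the brighter probe.

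Glis3, the zinc finger factor gene, was at the limit of the array. Its probe (A_52_P546200) was well above background in the AngII RNA on 0 of 4 arrays and in the media RNA on 1 of 4. Its levels were 6.08, 6.06, 6.07 and 6.10 log2 units under AngII and 6.14, 6.11, 6.14 and 6.19 in media, values that do not overlap but lie near background. In the authors' deposited table it has a log2 ratio of -0.10 and an adjusted p of 0.0289, and when all dim probes were tested here it had an adjusted p of 0.215 in limma. Its paralogue Glis2, also a nephronophthisis gene, was bright but split by dye. Glis2 had log2 ratios of -0.51 and -0.43 with AngII in Cy5 and 0.72 and 0.72 with AngII in Cy3 at its brightest probe, a mean of 0.13, and -0.77 at its other tested probe.

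The gene nearest in pattern to each member, by Euclidean distance over the 4 array log2 ratios among 11449 genes, lay within 0.03 to 0.10 log2 units. These were Slx1b for Pkd1, Rdm1 for Pkd2, Trim41 for Pkhd1, Flna for Bicc1, Arl6ip6 for Nphp4, Pde4c for Ift88 and Hhatl for Kif3a. With 4 arrays such a likeness describes these hybridisations only.

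The wider intraflagellar transport list, the train and motor proteins that work with Ift88 and Kif3a, was mostly higher under AngII. Of 27 tested genes other than the members 23 rose and 2 fell; the median log2 ratio was 0.31. Of all 11449 genes, each by its brightest tested probe, 78.9% passed, 41.5% higher and 37.4% lower, with a median of 0.01. The same 23 genes lay above 0 on all 4 arrays, against 33.1% of all genes. With AngII in Cy5 alone 22 were higher and with AngII in Cy3 alone 20. With the replicate number as a block 17 were higher and 1 lower, where 2039 of all 11433 genes were higher and 1726 lower. The rise was led by Dync2li1, a light intermediate chain of the dynein that returns trains from the tip, at 0.98 (0.76 to 1.14 over the arrays), and by the IFT-A gene Wdr19 at 0.90 (0.60 to 1.20).

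Set out by complex, a grouping made after the values were seen, all 5 tested IFT-A genes rose at their brightest tested probe, with a median of 0.57. Wdr35 among them had 0.21 at that probe and -0.0024 at its other. Of 15 tested IFT-B partners of Ift88, 14 rose, from 0.12 for Ift22 to 0.68 for Hspb11, and Ift172 had 0.00075 and did not pass. Ift88, at 0.13, was among the smallest of these ratios. Of 4 dynein-2 genes 3 rose, and Wdr34 at -0.04 did not pass. Among the kinesin-2 partners of Kif3a the signs were mixed. The motor subunit gene Kif3b had -0.36 and -0.25 with AngII in Cy5 and -0.23 and -0.05 with AngII in Cy3, and fell by 0.22 on the log2 scale (adjusted p = 2.72e-06 in limma). Kif3c, which encodes another kinesin-2 motor subunit, fell by 0.39 (-0.50 to -0.33). The adaptor subunit gene Kifap3 rose by 0.16 (0.11 to 0.23), with 0.03 to 0.28 at its other probes. At their brightest probes, the tested kinesin-2 motor subunit genes, Kif3a included, thus lay on the other side of 0 from most of the train. The dimmer Kif3a probe, at -0.06, did not pass. Ttc30a1 and Ttc30b are near-identical copies, so their probes may read both.

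**Figure D3:**
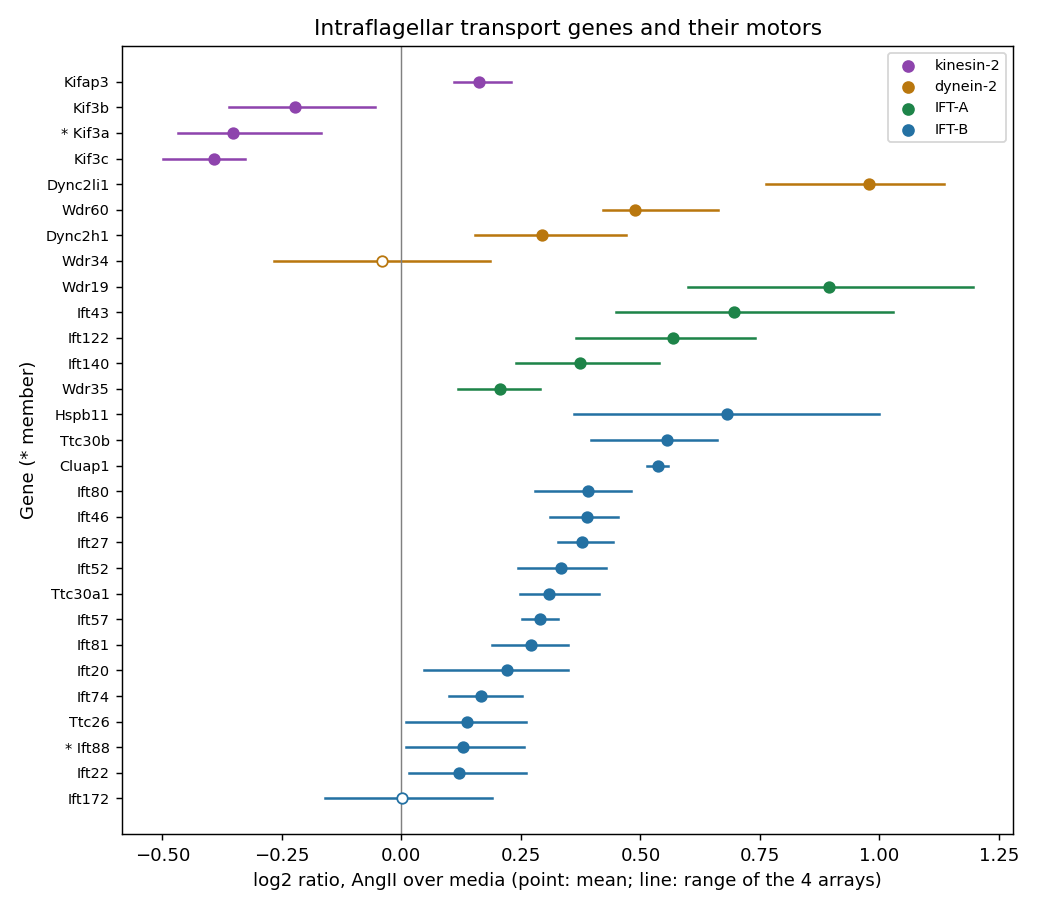
Log2 ratio of AngII over media (x axis) of 27 intraflagellar transport genes and the members Ift88 and Kif3a (marked with a star), coloured by complex. Points are means, open where the gene did not pass, and lines span the 4 arrays; the IFT-A genes lie to the right of 0 and Kif3a, Kif3b and Kif3c to the left.

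Other nephronophthisis and transition zone genes, the group of Nphp4, numbered 22 tested, of which 14 rose, 5 fell and the median was 0.13. Over all genes 41.5% were higher and 37.4% lower. With the replicate number as a block 6 of the 22 were higher and 3 lower, where 2039 of all 11433 genes were higher and 1726 lower. Cep164, a gene of the distal appendages that anchor the basal body, rose by 0.50 (0.38 to 0.59). Nek8, a ciliary kinase gene mutated in the jck mouse, fell by 0.61 (-0.89 to -0.29), and Slc41a1, a magnesium transporter gene, by 0.39 (-0.71 to -0.15; -0.03 at another probe). On all 4 arrays 11 of the 22 lay above 0 and 3 below, where the shares over all genes were 33.1% and 28.1%.

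Other cystic kidney and polycystin family genes had a median of 0.04, with 7 of 17 higher and 4 lower. Over all genes 41.5% were higher and 37.4% lower, so the share that rose was near the background. With AngII in Cy5 alone that median was 0.11, with AngII in Cy3 alone -0.0030, and with median centring 0.11. Sec61b, a subunit of the channel through which polycystins enter the endoplasmic reticulum, rose by 0.39 (0.27 to 0.51) and the ciliary GTPase gene Arl13b by 0.25 (0.23 to 0.27). Dzip1l, a recessive polycystic kidney disease gene, fell by 0.30 (-0.40 to -0.20), with -0.50 at another probe, and Prkcsh, a glucosidase II subunit gene, by 0.12 (-0.20 to -0.05). The polycystin paralogues Pkd2l1 and Pkd1l3 were on the array but too dim to be tested. Of the Bardet-Biedl genes, some of whose products carry membrane proteins at the cilium, 4 of 9 rose, 1 fell and the median was 0.05. Here too the share that rose was near that of all genes. Arl6 rose by 0.86 (0.70 to 0.99; 0.78 at another probe) and Bbs12 by 0.22 (0.08 to 0.37), while Bbs2 fell by 0.26 (-0.36 to -0.12).

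Calcium and cAMP signalling genes, the pathways downstream of polycystins, had 7 of 14 higher, 5 lower and a median of 0.09, where 41.5% of all genes were higher and 37.4% lower, so the list lay near the background. The IP3 receptor genes Itpr2 and Itpr3, which encode calcium release channels that work beside polycystin-2 in the endoplasmic reticulum, rose by 1.12 (1.00 to 1.24; 0.37 at another probe) and 1.05. The adenylyl cyclase gene Adcy6 fell by 0.44 (-0.56 to -0.39) and the kinase gene Prkx by 0.40 (-0.57 to -0.20). With Agilent's processed signals the median of this list was 0.29.

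Planar cell polarity genes, which orient cell division in growing tubules, were lower in 10 of 17 and higher in 3, with a median of -0.14. Over all genes 37.4% were lower and 41.5% higher. Agilent's processed signals gave a median of -0.25 and the arrays with AngII in Cy5 one of -0.05. With the replicate number as a block 3 were lower and 3 higher, where 1726 of all 11433 genes were lower and 2039 higher. Fjx1, a secreted modulator of the Fat and Dachsous cadherins, fell by 1.91 (-1.95 to -1.86) and Dvl1 by 0.50 (-0.54 to -0.47; -0.89 at another probe). Celsr2 rose by 0.61 (0.58 to 0.65), with -0.08 to 0.34 at its other probes, and Wdpcp by 0.41 (0.34 to 0.53). Hedgehog genes, a pathway read through the cilium, numbered 9 tested, of which 6 fell, 3 rose and the median was -0.21. The shares over all genes are those given for the planar polarity list. That median was -0.11 with AngII in Cy5 alone, -0.31 with AngII in Cy3 alone and -0.44 with Agilent's processed signals, and with the replicate number as a block 1 fell and 1 rose. Boc fell by 0.37 (-0.52 to -0.19) and Gli2 by 0.34 (-0.57 to -0.09), while Smo rose by 0.35 (0.19 to 0.45), with -0.29 at another probe, and Stk36 by 0.10 (0.03 to 0.16). Shh and Gli1 were too dim to be tested.

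**Figure D4:**
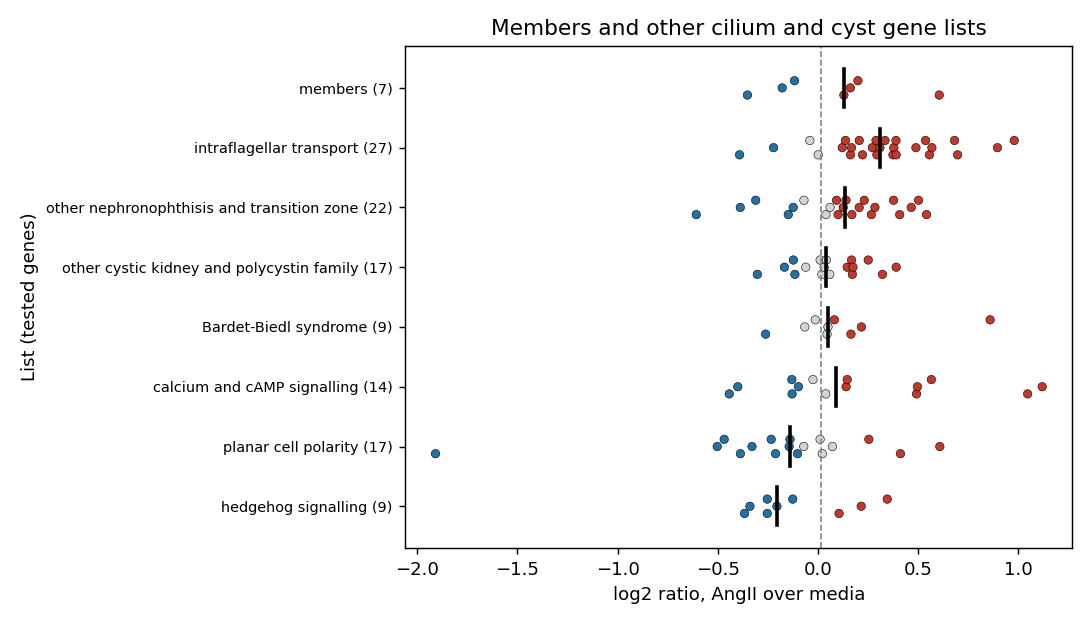
Log2 ratio of AngII over media (x axis) of each tested gene in the member list and the 7 other lists (y axis, number tested in brackets). Red genes rose, blue genes fell and grey genes did not pass; the black bar is the list's median and the dashed line the median of all genes. The intraflagellar transport median stands at 0.31 and the hedgehog median at -0.21.

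Markers of other cells were read beside these results, where 41.5% of all genes were higher and 37.4% lower. The 7 tested of 9 erythroid markers all rose, and their mean level was 10.80 to 11.07 log2 units over the 4 AngII RNAs against 8.96 to 9.07 over the media RNAs. Stromal markers averaged 11.57 to 11.72 log2 units under AngII and 11.33 to 11.41 in media (8 of 9 tested). Of these 4 rose and 2 fell, with a median log2 ratio of 0.09, and 6 of the 8 had mixed signs over the arrays. Acta2, a smooth muscle actin gene, rose by 1.69 at its brightest probe, with 0.649 to 1.025 at its other probes. Nephron progenitor markers averaged 8.39 to 8.57 under AngII and 8.41 to 8.68 in media (7 of 8 tested), ranges that overlap. By gene 4 of the 7 fell and 2 rose, with a median log2 ratio of -0.37. The sign of that median differed by dye. It was 0.04 where Cy5 labelled the AngII RNA and -0.24 where Cy3 did. Meox1 fell by 0.60 (-0.70 at another probe) and Osr1 by 0.58 (-0.31 at another probe). Six2 fell by 0.37 (above 0 with AngII in Cy5) and Eya1 by 0.37, while Tmem100 rose by 0.77 and Cited1 by 0.24. Leukocyte markers averaged 6.64 to 6.76 and 6.60 to 6.71 (6 of 7 tested), and endothelial markers 7.79 to 7.82 and 7.76 to 7.86 (7 of 8 tested). By gene 2 leukocyte markers rose and 4 fell, and 2 endothelial markers rose and 4 fell. Of 15 motile cilium genes, which mark multiciliated cells, 4 were tested, 2 of them higher and 1 lower, and the master regulator Foxj1 was not well above background on all 4 arrays. The part of any other cell type in the ratios of the members was not tested.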

How the data were processed

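Cy3- and Cy5-labelled cDNA made from 300 ng of total RNA was hybridised to 2-colour Agilent mouse arrays, per the labels' protocols. Per the file headers, Feature Extraction 10.5.1.1 read the scans. The deposited tables hold 2 kinds of intensity, the median pixel intensity of a spot and of its surroundings, and a processed intensity that the software had background-subtracted and dye-normalised. The deposited scanner tables also hold a log10 ratio of red over green, not used here, and flags of 0 or 1, a score for being well above background, saturated or an outlier. The authors' deposited table gives an adjusted p-value for each spot, beside a log2 ratio, the average log2 intensity and a score of -1, 0 or 1 for the call. The submitters' processing notes name limma with no version; how the ratios were centred is not given in the sources used here. Its log2 ratios correlate at r = 0.995 over 19390 probes with those computed here, with AngII over media as positive.

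In R 4.3.3 with limma 3.58.1, background was corrected by normexp (offset 50) and arrays by loess, with control spots at weight 0 and outlier spots left out. Dye-swapped arrays were turned, each dye swap was averaged to 1 ratio, and lmFit and eBayes tested the 2 ratios against 0, with Benjamini-Hochberg adjustment over all 19390 probes kept. A probe was kept if well above background in the AngII RNA, or in the media RNA, of all 4 arrays; between 19024 and 21919 probes were so in a given channel. Levels are log2 channel intensities after Aquantile. Accessions named 25097 probes through RefSeq genes of GRCm38.p6; the array annotation is of another build, so no probe coordinates are given. The number of arrays limits the precision.

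All member probes are named, and, from each list, the up to 2 genes with the largest ratio in each direction that passed with one sign on all 4 arrays, plus Pkd2l1, Pkd1l3, Glis2, Kif3b and Kifap3; an item that this rule names is not reported here. Ift22, Hspb11, Ift172, Wdr34, Wdr35, Ttc30a1, Ttc30b, Shh and Gli1 were named after their values were seen. So were, as markers, Ret, Foxj1, Acta2 and those of nephron progenitors. The members and lists were chosen with earlier results of these data known. The ratio within an array pairs the RNAs of one number. Alternatives are given in the closing section.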

Additional observations from a re-analysis of the deposited data

Results flagged for a closer look

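At 7 of the 9 tested member probes the log2 ratio of AngII over media differed between the arrays with AngII in Cy5 and those with AngII in Cy3, by the orientation term of a limma fit with AngII, orientation and replicate number (adjusted p under 0.05), as did 55.1% of all probes. The difference, AngII in Cy5 minus AngII in Cy3, was 0.353 for Pkd1, 0.366 and -0.355 for the 2 Pkd2 probes, -0.242 for Pkhd1, -0.427 for Bicc1, 0.406 for Nphp4 and -0.18 for the dimmer Kif3a probe. Ift88 and the brighter Kif3a probe did not pass that test.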

How the results depend on the processing

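With the replicate number as a block on the 4 turned arrays, 5749 probes, 3 member probes (both of Pkd2 and the brighter of Kif3a) and 47 of 115 pathway genes passed, against 14760, 8 and 94 without it; by construction that fit's residual holds the difference between dye orientations. With the block and a dye term together, an alternative added after seeing the data, the same 8 member probes passed. Fitting one probe per gene gave 9096 features, of 11449 tested. With AngII in Cy5 alone Bicc1 turned to -0.052, and with AngII in Cy3 alone Pkhd1 turned to 0.0035, Nphp4 to -0.0043 and the dimmer Kif3a probe to 0.028; in each of these the cause was not tested beyond the orientation difference given above. Pkd2 stayed between 0.60 and 0.66 at its brighter probe and 0.46 and 0.54 at the second, and the brighter Kif3a probe between -0.37 and -0.31, over the alternatives that used all arrays. Leaving out one replicate left the other's ratio with no test, so counts of calls have no such value; the member ratios then ranged from 0.59 to 0.62 and 0.45 to 0.46 for Pkd2, -0.19 to -0.17 for Pkd1, -0.14 to -0.10 for Pkhd1, 0.12 to 0.20 for Bicc1, 0.18 to 0.22 for Nphp4, 0.07 to 0.19 for Ift88, and -0.42 to -0.28 and -0.09 to -0.03 for Kif3a. Small ratios of dim probes, such as Glis3, are limited by signal over background.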
